A study of Mus musculus with 6 samples.

Results

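Translation initiation factors were followed on Illumina MouseRef-8 arrays in HL-1, a line of beating cardiomyocytes that came from a mouse atrium. The members were all probes whose gene symbol begins with Eif and a digit, with the eIF2 kinases (Eif2ak, 4 probes) left out. There were 67 such probes of 43 genes among the 25697 probes and 16593 genes of the array. They were grouped by gene symbol as Eif1, Eif2, Eif2B, Eif3, Eif4, the eIF4E-binding proteins, Eif5 and Eif6.

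The series had 3 groups of 2 arrays each. Cells received hyaluronan chains of 6 sugars (o-HA), hyaluronan of native size, 1000 kDa (n-HA), or nothing (untreated), and all groups were HL-1 cells kept in Claycomb medium. Hyaluronan is an unbranched sugar polymer of the extracellular matrix, and the design asked whether it alters transcription in cardiomyocytes and whether chain length matters. The mass doses of o-HA and n-HA differed, so each was set against untreated cells only and no contrast between them was made. HL-1 is an immortalised line that divides in culture. Whether a group's replicates came from different cultures is not given in the labels, and the p-values cover the spread between these samples, which may be technical.

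Initiation factors assemble a ribosome at the start codon of an mRNA. eIF2 brings the initiator methionyl-tRNA to the small ribosomal subunit, and eIF2B recharges eIF2 with GTP. eIF3 is a scaffold on the small subunit, and the eIF4 proteins bind the mRNA cap and unwind the leader. eIF2 phosphorylation by stress kinases and release of eIF4E from its binding proteins by mTOR are the best-known controls of the pathway, and both act on protein rather than on mRNA. In the heart, growth of cardiomyocytes depends on the rate of protein synthesis, which is set largely at initiation.

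The n-HA arrays differed from the rest before any test. Mean bead intensity was 125.1 and 131.8 on the o-HA arrays, 110.1 and 93.3 on the n-HA arrays, and 140.9 and 121.6 on the untreated arrays. Detected probes (detection p under 0.05 against negative control beads) numbered 5504 and 5443 with o-HA, 4767 and 4546 with n-HA, and 5763 and 5449 in untreated cells. Over all probes, as a description, the correlation of n-HA replicate 1 with each other array was 0.881 to 0.911 on the log2 scale, while among the other 5 it was 0.968 or more. The tests of the initiation factors are therefore given with all 6 arrays and again without n-HA replicate 1, which leaves 1 n-HA array whose spread is taken from the other groups. All arrays lay on 1 chip with each group in a pair of neighbouring places, so chip place and group cannot be told apart. Of 11 cardiomyocyte markers on the array, 7 were detected on all 6 arrays (among them Actc1, Myh6 and Nppa), while Gata4 and Ryr2 were detected on 0. Of 7 fibroblast markers, 6 were detected on 0 arrays. Summed marker intensity for cardiomyocytes was 9172 and 10380 with o-HA, 15860 and 5662 with n-HA, and 13470 and 9500 in untreated cells. For the smooth muscle list, of which Acta2, Tagln and Smtn were detected on all arrays and Myh11 and Cnn1 on 0, the sums were 5154 and 6830 with o-HA, 10550 and 3969 with n-HA, and 8139 and 5819 in untreated cells. Endothelial sums lay between 384.2 and 409.3, with Tek detected on 5 arrays, Kdr and Vwf on 1 each, and Pecam1 and Cdh5 on 0. Leukocyte sums lay between 246.5 and 281.6, with Cd3e detected on all 6 arrays and Ptprc and Itgam on 0. Cardiomyocyte and smooth muscle sums, taken before normalization, were thus highest on n-HA replicate 1 and lowest on n-HA replicate 2. They differed between the untreated arrays as well, and their part in the results was not tested.

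About 4 in 10 initiation factor probes gave a signal in these cells. A probe was tested where at least 2 of the 6 arrays detected it, which held for 28 of the 67 probes (41.8%), against 24.1% of all probes on the array. These 28 probes covered 22 of the 43 genes. Detection held on all 6 arrays for 20 probes, on 1 array for 5 and on 0 arrays for 34. The number of member probes detected was 23 and 27 with o-HA, 26 and 25 with n-HA, and 25 and 25 in untreated cells, so the dimmer n-HA arrays did not detect fewer of them. A member can pass this limit through the treated arrays alone, where it is then high, and this held for Eif2s3x and for Eif2b5 probe ILMN_2602140. The untested probes are described only by detection and range.

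Detection differed between the factor classes. Among classes of more than 1 probe, Eif2B was read best, with 6 of 7 probes tested and all 4 of its genes on all 6 arrays. Eif3 had 9 of 18 probes tested, Eif4 had 6 of 18, and the eIF4E-binding proteins had 2 of 5. Eif2 had 2 of 6 probes tested, Eif5 had 2 of 8, both of them for Eif5a, and the single Eif6 probe was tested. None of the 4 Eif1 probes (Eif1a, Eif1ad, Eif1ax and Eif1b, which help the small subunit scan for the start codon) was detected on any array. A probe that is not detected can bind poorly, so detection ranks probes and not the amounts of the factors.

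**Figure D1:**
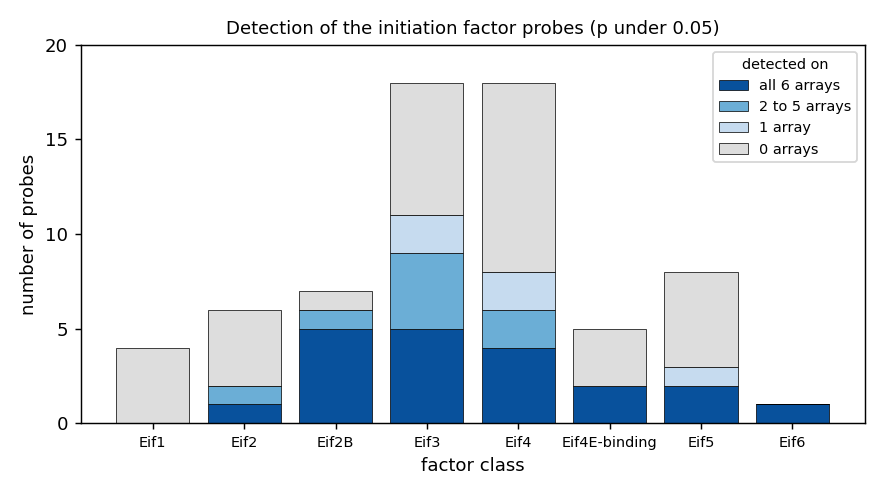
Number of initiation factor probes (vertical axis) in each factor class (horizontal axis), split by the number of arrays with a detection p under 0.05. Of 67 probes, 20 were detected on all 6 arrays and 34 on 0; Eif2B had 5 of 7 probes on all 6 arrays and Eif1 had 0 of 4.

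Several central factors fell below the detection limit. Eif4e, the cap-binding protein, Eif4ebp1, the best-known inhibitor of it, Eif2s2, the beta subunit of eIF2, and Eif3e, a subunit of eIF3, were detected on 0 arrays. In all, 18 genes were detected on 0 arrays, and besides those named here and the Eif1 genes they were Eif2s3y, Eif3c, Eif3j1, Eif3k, Eif3m, Eif4e1b, Eif4e3, Eif4ebp3, Eif5a2 and Eif5b. Eif3h, Eif4b and Eif5 were each detected on 1 array only. Normalized log2 values of the untested probes lay between 4.17 and 5.18, close to the log2 of the added offset of 16. Eif2s1 and Eif4g1 were not analysed here.

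Start regions of 4 genes that recur in the results are printed to place them in the genome and to show how unlike they are in sequence. Each run holds 150 bases before and 20 after the annotated start of the gene, 5′ to 3′ on the gene's strand, from RefSeq with build GRCm38.p6. Capitals mark every match, on either strand, to GGGCGG (the GC box of Sp1), CCGGAA (the core of ETS sites), CACGTG (the E-box bound by MYC) or TATAAA (the TATA box), and no matches overlapped in these 4 windows.
Eif3f: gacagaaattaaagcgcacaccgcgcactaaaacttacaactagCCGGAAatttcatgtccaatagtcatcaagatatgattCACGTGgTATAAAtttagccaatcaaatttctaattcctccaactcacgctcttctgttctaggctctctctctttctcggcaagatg
Eif2b5: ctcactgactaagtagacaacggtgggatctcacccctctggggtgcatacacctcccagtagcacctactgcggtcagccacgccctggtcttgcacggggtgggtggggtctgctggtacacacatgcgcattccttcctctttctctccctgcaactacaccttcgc
Eif4a3: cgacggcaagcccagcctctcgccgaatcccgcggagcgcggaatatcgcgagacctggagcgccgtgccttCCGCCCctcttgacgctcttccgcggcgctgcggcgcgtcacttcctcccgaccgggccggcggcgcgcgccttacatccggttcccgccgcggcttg
Eif3d: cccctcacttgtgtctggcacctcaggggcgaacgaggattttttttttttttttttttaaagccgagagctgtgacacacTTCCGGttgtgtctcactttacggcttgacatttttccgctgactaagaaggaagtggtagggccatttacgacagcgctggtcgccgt
Eif3f lies on the plus strand, with the window at chr7:108934265-108934434, and Eif2b5 also lies on the plus strand, at chr16:20498667-20498836. Eif4a3 lies on the minus strand at chr11:119300024-119300193 and Eif3d on the minus strand at chr15:77970805-77970974.

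The Eif3f window was the AT-rich one, with 40.6% G and C, and it held the ETS core, the E-box and the TATA box once each. It was the only one of the 33 initiation factor genes with a start region in the table that held TATAAA (3.03%), against 9.48% of all 27025 genes. The Eif2b5 window held none of the letters searched and had 58.8% G and C. The Eif4a3 window held GGGCGG once on the opposite strand and had 73.5% G and C, and Eif3d held CCGGAA once on the opposite strand. Over the 33 genes, 22 (66.7%) held GGGCGG, against 33% of all genes, 15 (45.5%) held CCGGAA, against 12.4%, and 7 (21.2%) held CACGTG, against 5.53%. Among all 32851 start regions, whatever the gene, the shares were 30.3%, 10.9% and 4.86%, with 8.1% for TATAAA. The 44 start regions of these genes had a median of 66.2% G and C, against 54.1% for all start regions, and the shares of letters rich in G and C move with that. A match is a description of the letters and not a site of binding.

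With o-HA no initiation factor differed detectably from untreated cells over all 6 arrays. With all 6 arrays, 0 of the 28 probes passed an adjusted p of 0.05 in limma (Benjamini-Hochberg over 6194 probes), against 0% of all probes tested, and 0 of 28 had an unadjusted p under 0.05, against 1.26% (0.549% higher and 0.71% lower). Log2 fold changes over untreated cells were positive for 14 probes (50.3% of all probes) and negative for 14 (49.6% of all probes), with a median of -0.01 (0 over all probes) and a range of -0.34 to 0.92. Both o-HA arrays lay above both untreated arrays for 4 probes (14.3%, against 21.7% of all probes) and below both for 4 (14.3%, against 22%). Without n-HA replicate 1, 1 of 26 probes passed (3.85%), against 0.407% of all 5893 probes tested, and that probe, for Eif3f, rose, while 0.17% of all probes rose and 0.238% fell.

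With n-HA the spread was wide, and calls among the initiation factors were about as frequent as on the array as a whole. With all 6 arrays, 0 of 28 probes passed the adjusted threshold, against 0% of all probes, with a lowest adjusted p of 0.176. An unadjusted p under 0.05 was reached by 6 of 28 probes (21.4%), against 21.8% of all probes tested. Of these, 2 were higher (9.32% of all probes) and 4 lower (12.5% of all probes). Fold changes were positive for 14 probes (49.3% of all probes) and negative for 14 (50.7% of all probes), with a median of -0.03 (-0.01 over all probes) and a range of -2.15 to 1.47. Both n-HA arrays lay above both untreated arrays for 7 probes (25%, against 23.8%) and below both for 9 (32.1%, against 30.5%). Without n-HA replicate 1, 4 of 26 probes passed (15.4%), against 17.1% of all probes, 3 of them higher (7.36% of all probes), among them Eif2s3x, and 1 lower (9.77% of all probes). Without n-HA replicate 2 in its place, 17 of 27 passed (63%), against 54.1% of all 5959 probes, 7 higher (26.8% of all probes) and 10 lower (27.3% of all probes).

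The replicate arrays show where the n-HA spread lay. The gap between replicates had a median of 0.26 on the log2 scale with o-HA, 1.1 with n-HA and 0.13 in untreated cells over the 28 probes, and a maximum of 0.73 with o-HA, 2.99 with n-HA and 0.6 in untreated cells. A gap over 1 was found for 16 of 28 probes with n-HA, against 25.2% of all probes, and for 0 of 28 with o-HA and in untreated cells. Over all tested probes the median gap was 0.18 with o-HA, 0.51 with n-HA and 0.18 in untreated cells. A gap over 1 was thus more common among the tested members than among all tested probes, with no test of that difference. The sets also differed in signal. Of the 28 members 20 were detected on all 6 arrays, against 3017 of all 6194 tested probes. They were not matched for signal, so the larger share cannot be tied to initiation factors as such.

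**Figure D2:**
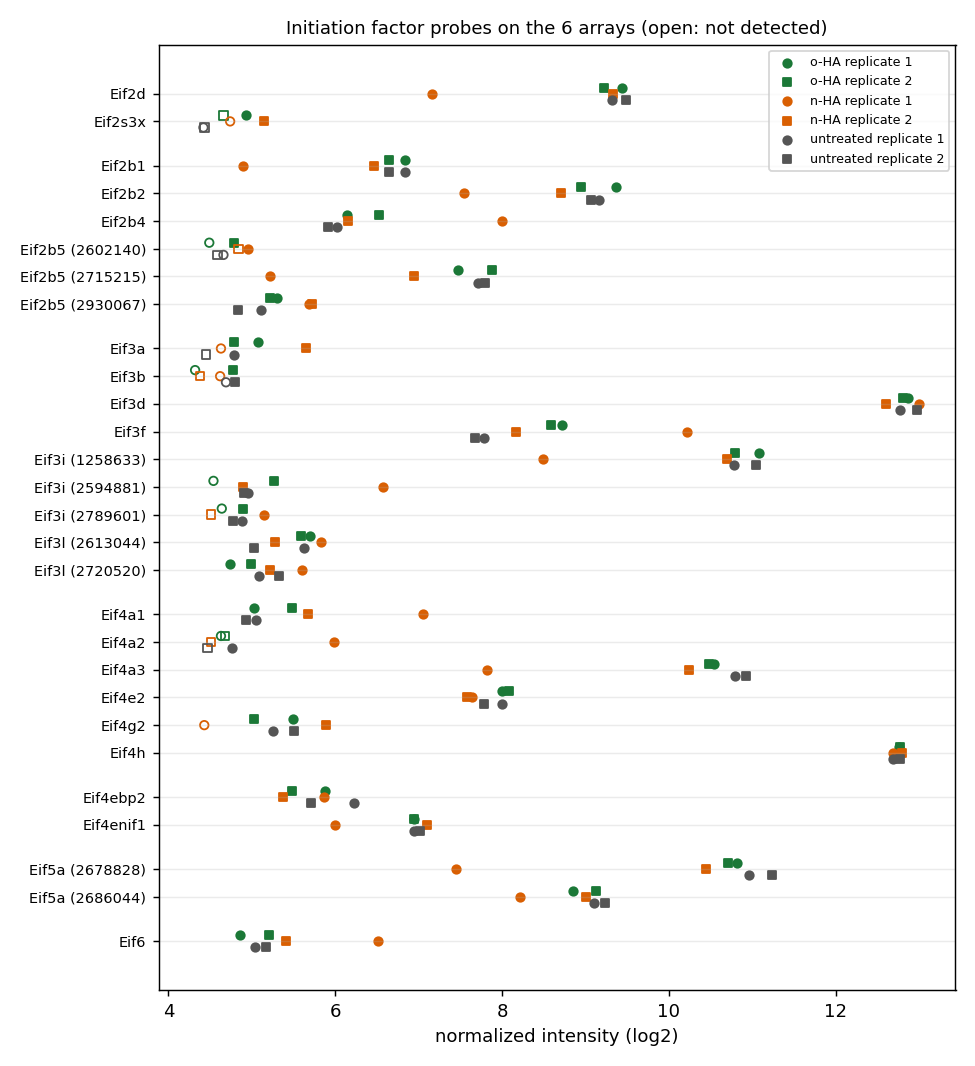
Normalized intensity (log2, horizontal axis) of the 28 tested probes (rows, by factor class) on each o-HA, n-HA and untreated array; circles are replicate 1, squares replicate 2, and open symbols were not detected. n-HA replicate 1 lies apart in most rows, such as Eif5a (7.45 against 10.44 on n-HA replicate 2), while Eif4h and Eif3d stay closer together on all 6 arrays.

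**Figure D3:**
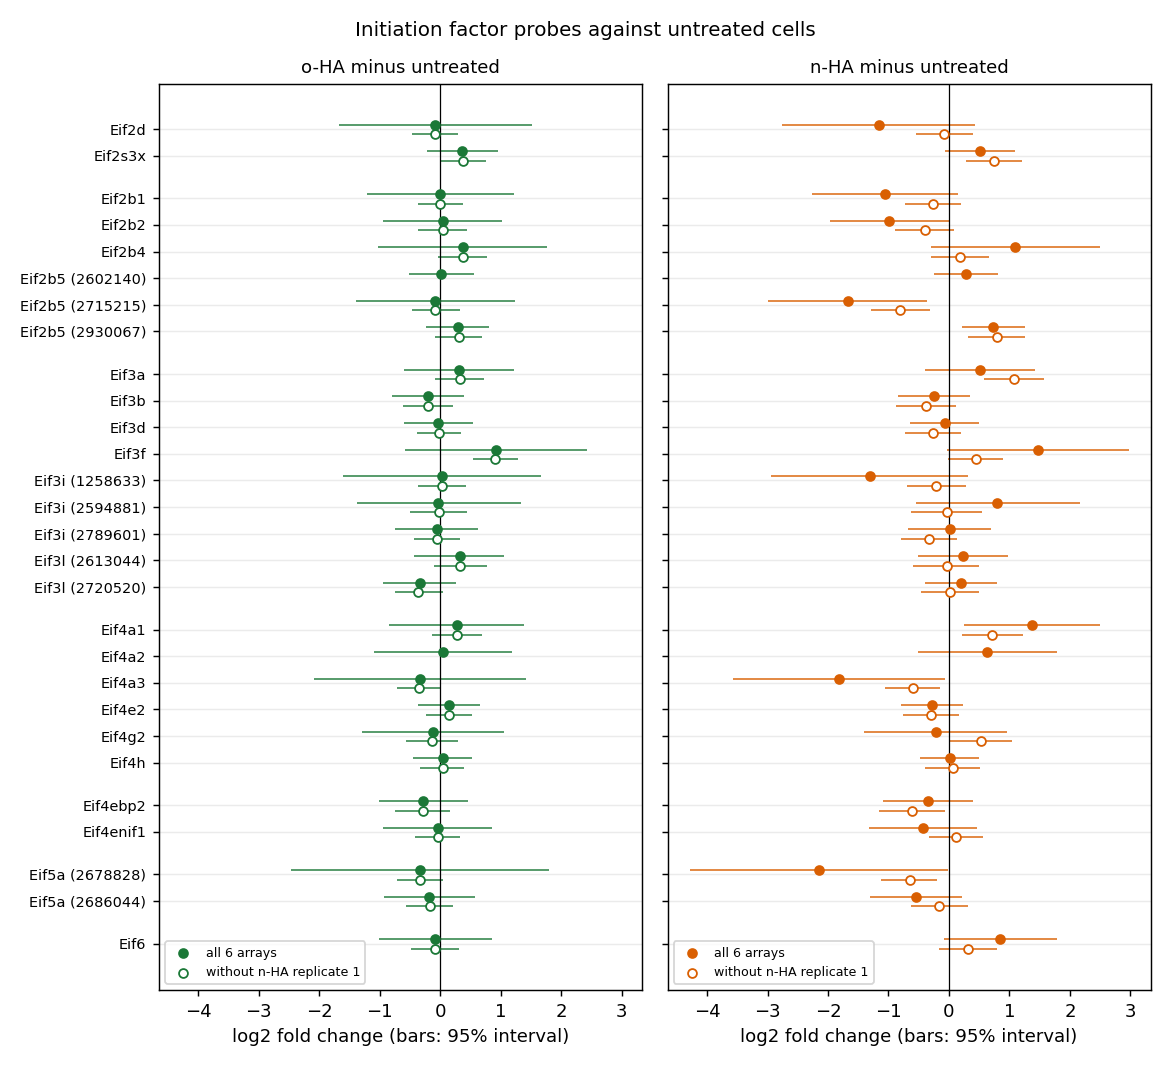
Log2 fold change over untreated cells (horizontal axis) with its 95% interval for each of the 28 tested probes (rows), o-HA on the left and n-HA on the right; filled points use all 6 arrays and open points leave out n-HA replicate 1, where 26 probes were tested. With all 6 arrays 0 probes passed the adjusted threshold. Without n-HA replicate 1 the passing probes were Eif3f with o-HA, and Eif2s3x, Eif3a and 2 Eif2b5 probes with n-HA. Eif2s3x entered the test only through treated arrays.

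Within the Eif2 class, which was formed by gene symbol, Eif2s3x and Eif2d were the genes that could be tested. Eif2s3x, the X-linked gene for the gamma subunit that binds GTP and the initiator tRNA, had log2 values of 4.93 and 4.66 with o-HA, 4.74 and 5.14 with n-HA, and 4.42 and 4.43 in untreated cells (probe ILMN_2649129). All 4 treated arrays lay above both untreated arrays, but the probe was detected on 1 o-HA array, 1 n-HA array and 0 untreated arrays. Its level was therefore only bounded, at least 1.05-fold higher with o-HA and at least 1.16-fold higher with n-HA, the bound being set by the lowest signal still detected on each untreated array. The treated means behind these bounds, 4.79 with o-HA and 4.94 with n-HA, each include an array that did not detect the probe. The adjusted p in limma was 1 for o-HA and 0.261 for n-HA with all 6 arrays, and 0.362 for o-HA and 0.0317 for n-HA without n-HA replicate 1. Since the probe entered the test only through treated arrays, where it had to be high, this call supports nothing by itself. Before normalization the intensities were 76.99 and 70.93 with o-HA, 70.99 and 73.19 with n-HA, and 63.5 and 62.75 in untreated cells, a narrow range near background.

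Eif2d, which can deliver tRNA to the small subunit without GTP, was read far above background. Its log2 values were 9.44 and 9.22 with o-HA, 7.16 and 9.33 with n-HA, and 9.32 and 9.49 in untreated cells. A single array, n-HA replicate 1, lay low, and the n-HA fold change was -1.16 (SE 0.66, adjusted p = 0.321 in limma) with all arrays and -0.08 (SE 0.22) without it. The o-HA fold change was -0.08 with a 95% interval of -1.67 to 1.52 over all 6 arrays, and -0.46 to 0.3 without n-HA replicate 1.

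Among the subunits of eIF2B, the exchange factor of eIF2, the probes of Eif2b5 moved in opposite directions with n-HA. Eif2b5 encodes the epsilon subunit, which carries the catalytic activity. Probe ILMN_2715215 had log2 values of 7.47 and 7.88 with o-HA, 5.22 and 6.94 with n-HA, and 7.71 and 7.79 in untreated cells. Both n-HA arrays lay below all 4 others. The n-HA fold change was -1.67 (SE 0.54, adjusted p = 0.181 in limma) with all arrays and -0.81 (SE 0.23, adjusted p = 0.0281) without n-HA replicate 1. Without n-HA replicate 2 it was -2.60. The fall missed the threshold with both n-HA arrays in the fit. A fit with 1 n-HA array takes its spread from the other groups and leaves out the gap between the n-HA arrays. Passing in such a fit therefore does not show that the fall is firm. With the authors' normalized values and without n-HA replicate 1 it was -0.79 and missed the threshold (adjusted p = 0.0651). The o-HA fold change was -0.08 with all arrays and without n-HA replicate 1.

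The second Eif2b5 probe, ILMN_2930067, had log2 values of 5.3 and 5.22 with o-HA, 5.68 and 5.72 with n-HA, and 5.11 and 4.83 in untreated cells. Both n-HA arrays lay above the others and close to each other. Its fold change with n-HA was 0.73 (SE 0.21, adjusted p = 0.176 in limma), the lowest adjusted p of any initiation factor, and 0.79 (SE 0.22, adjusted p = 0.0257) without n-HA replicate 1. With the authors' normalized values and without that array it was 0.84 and missed the threshold (adjusted p = 0.0509). With o-HA it was 0.29 (SE 0.21) with all arrays and 0.31 (SE 0.18) without n-HA replicate 1. Its bead intensities before normalization were 87.27 and 88.14 with o-HA, 85.94 and 79.93 with n-HA, and 87.14 and 73.03 in untreated cells, which overlap. The rise of this probe was thus present after the arrays were brought to a common distribution and not in the intensities themselves, where the fold change without normalization was 0.12 (adjusted p = 0.844). For probe ILMN_2715215 the intensities were 237.2 and 338.3 with o-HA, 78.23 and 112.4 with n-HA, and 343.6 and 271.7 in untreated cells, and the fold change without normalization was -2.49 (adjusted p = 0.0136).

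The third Eif2b5 probe, ILMN_2602140, was detected on 2 arrays only, with log2 values of 4.49 and 4.79 for o-HA, 4.96 and 4.84 for n-HA, and 4.66 and 4.59 for untreated cells. It was detected on 1 o-HA array, 1 n-HA array and 0 untreated arrays, so it too entered only through treated arrays. With n-HA the bound was at least 1.13-fold higher, from a mean of 4.9 that includes an undetected array, and with o-HA there was no bound above 1. Its adjusted p in limma was 1 for o-HA and 0.457 for n-HA, and without n-HA replicate 1 it was not tested. The probes of Eif2b5 spanned 2.4 on the log2 scale in their n-HA fold changes and 0.37 in their o-HA fold changes. Which transcript each probe binds was not analysed here, so no single direction can be given for the gene.

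The other eIF2B subunits did not pass the threshold in either comparison. Eif2b1, the alpha subunit, and Eif2b2, the beta subunit, belong to the regulatory core of eIF2B. Eif2b1 had log2 values of 6.83 and 6.65 with o-HA, 4.89 and 6.47 with n-HA, and 6.83 and 6.65 in untreated cells. Its n-HA fold change was -1.06 (SE 0.5, adjusted p = 0.262 in limma) with all arrays and -0.27 (SE 0.22, adjusted p = 0.419) without n-HA replicate 1. Eif2b2 had 9.36 and 8.94 with o-HA, 7.54 and 8.7 with n-HA, and 9.16 and 9.06 in untreated cells. For both, the n-HA arrays lay below untreated cells and n-HA replicate 1 lay far lower than n-HA replicate 2. The n-HA fold change of Eif2b2 was -0.99 (SE 0.4, adjusted p = 0.229 in limma) with all arrays and -0.4 (adjusted p = 0.241) without n-HA replicate 1.

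Eif2b4, the delta subunit, went the other way on the same array. Its log2 values were 6.14 and 6.52 with o-HA, 8.0 and 6.15 with n-HA, and 6.02 and 5.91 in untreated cells. After normalization all treated arrays lay above both untreated arrays. Before it, the intensities were 122.8 and 157.1 with o-HA, 240.1 and 87.62 with n-HA, and 136.6 and 103.7 in untreated cells. There o-HA replicate 1 lay between the untreated arrays and n-HA replicate 2 lay below both. The fold changes were 0.37 (SE 0.58, adjusted p = 1 in limma) with o-HA and 1.1 (SE 0.58, adjusted p = 0.297) with n-HA, and without n-HA replicate 1 they were 0.37 (SE 0.19, adjusted p = 0.379) and 0.18 (SE 0.23, adjusted p = 0.606).

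Eif3f had the most positive fold change of the 28 probes in both comparisons with all 6 arrays. It encodes a subunit of eIF3 that is known in skeletal muscle as a link between mTOR and its substrate S6 kinase. Its probe ILMN_2924030 had log2 values of 8.72 and 8.58 with o-HA, 10.22 and 8.17 with n-HA, and 7.78 and 7.68 in untreated cells. All 4 treated arrays lay above both untreated arrays and n-HA replicate 1 lay far above the rest. With all 6 arrays the o-HA fold change was 0.92 on the log2 scale, or 1.89-fold (SE 0.62, adjusted p = 1 in limma), and the n-HA fold change was 1.47, or 2.76-fold (SE 0.62, adjusted p = 0.233).

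Without n-HA replicate 1 the rise of Eif3f with o-HA passed the threshold. The estimate was unmoved at 0.91, or 1.88-fold, but its error shrank (SE 0.17, 95% interval 0.54 to 1.28, adjusted p = 0.0429 in limma). The estimate was 0.92 without n-HA replicate 2, where it passed too, and 0.92 with all arrays weighted by their quality (adjusted p = 0.0524 in limma). With the authors' normalized values and without n-HA replicate 1 it was 0.89 and missed the threshold clearly. The call was thus seen only where an n-HA array was left out, and under no other alternative. The n-HA fold change without n-HA replicate 1 was 0.44 (SE 0.21, adjusted p = 0.165). Bead intensities were 494.7 ± 32.5 and 511.0 ± 25.7 with o-HA, 1013 ± 45.9 and 193.5 ± 12.9 with n-HA, and 356.3 ± 19.9 and 254.0 ± 10.9 in untreated cells (± standard error over the beads of the probe, 1 array each). The o-HA arrays thus lay above the untreated arrays before normalization too, while n-HA replicate 2 lay below them. Eif3f was among the genes the study listed for these samples, so its direction is not independent evidence.

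Eif3a, the large core subunit of eIF3, showed a level near background that was high on 1 array. Its tested probe, ILMN_2845039, had log2 values of 5.07 and 4.79 with o-HA, 4.63 and 5.65 with n-HA, and 4.79 and 4.45 in untreated cells. n-HA replicate 2 lay above all others, and n-HA replicate 1, which did not detect the probe, lay between the untreated arrays. Over untreated cells the n-HA difference was 0.52 (SE 0.37, adjusted p = 0.42 in limma) with all arrays, 1.08 (SE 0.23, adjusted p = 0.00779) without n-HA replicate 1 and 0.01 (adjusted p = 0.977) without n-HA replicate 2. The intensities were 80.45 and 74.46 with o-HA, 68.9 and 78.89 with n-HA, and 75.59 and 63.26 in untreated cells, so before normalization n-HA replicate 2 of Eif3a was only slightly above the brighter untreated array.

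Eif3d, which in human cells can itself bind the cap of some mRNAs, differed little between groups after normalization, and it is named here after its values were seen. Its log2 values were 12.87 and 12.81 with o-HA, 13.0 and 12.6 with n-HA, and 12.77 and 12.97 in untreated cells. The groups overlapped, with fold changes of -0.03 (95% interval -0.6 to 0.54) for o-HA and -0.07 (95% interval -0.65 to 0.5) for n-HA. Without n-HA replicate 1 they were -0.02 (95% interval -0.39 to 0.35) for o-HA and -0.26 (95% interval -0.72 to 0.2) for n-HA. Its intensities before normalization were 8202 and 8584 with o-HA, 7185 and 3854 with n-HA, and 9012 and 8690 in untreated cells, so both n-HA arrays were dimmer and n-HA replicate 2 by far the most.

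The probes of Eif3i and of Eif3l disagreed among themselves. Eif3i encodes a WD-repeat subunit at the edge of eIF3. Its bright probe, ILMN_1258633, had log2 values of 11.08 and 10.79 with o-HA, 8.49 and 10.7 with n-HA, and 10.78 and 11.04 in untreated cells. A dim probe, ILMN_2594881, had 4.54 and 5.27 with o-HA, 6.57 and 4.9 with n-HA, and 4.96 and 4.91 in untreated cells. n-HA replicate 1 was low on the one probe and high on the other, so the n-HA fold changes were -1.31 (SE 0.67) and 0.8 (SE 0.56), and without that array they were -0.21 and -0.04. The third probe, ILMN_2789601, had an n-HA fold change of 0.01 with all arrays and -0.33 without n-HA replicate 1, and the o-HA fold changes of the Eif3i probes lay between -0.06 and 0.03. Their adjusted p in limma was 0.289 or more for n-HA and 1 for o-HA.

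Eif3l is a subunit of eIF3 and was read by a pair of probes. ILMN_2613044 had log2 values of 5.7 and 5.59 with o-HA, 5.83 and 5.28 with n-HA, and 5.63 and 5.03 in untreated cells. ILMN_2720520 had 4.74 and 4.99 with o-HA, 5.6 and 5.22 with n-HA, and 5.08 and 5.33 in untreated cells. The o-HA fold changes were opposite, 0.32 (SE 0.31) and -0.34 (SE 0.25), with an adjusted p of 1 in limma for each, and the n-HA fold changes were 0.23 and 0.2. Leaving out n-HA replicate 1 gave 0.33 and -0.36 for o-HA and -0.04 and 0.02 for n-HA. Eif3b, another subunit of eIF3, was detected on 1 o-HA array, 0 n-HA arrays and 1 untreated array. It had log2 values of 4.32 and 4.77 with o-HA, 4.62 and 4.38 with n-HA, and 4.69 and 4.8 in untreated cells. Its n-HA fold change was -0.25 (adjusted p = 0.552 in limma) with all arrays and -0.38 (adjusted p = 0.281) without n-HA replicate 1. The 5 untested genes of eIF3 detected on 0 arrays leave the complex only in part measured.

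Among the eIF4 proteins, the helicases of the eIF4A family differed in direction with n-HA. Eif4a1, the main helicase that unwinds the mRNA leader, had log2 values of 5.03 and 5.48 with o-HA, 7.05 and 5.67 with n-HA, and 5.05 and 4.93 in untreated cells. Both n-HA arrays lay above the other 4. With n-HA the log2 fold change was 1.37 (SE 0.46, adjusted p = 0.189 in limma) with all arrays and 0.72 (SE 0.24, adjusted p = 0.0501) without n-HA replicate 1, and the o-HA fold change was 0.27 (SE 0.46, adjusted p = 1). Before normalization Eif4a1 had intensities of 79.36 and 98.51 with o-HA, 140.1 and 79.15 with n-HA, and 84.67 and 75.16 in untreated cells. There n-HA replicate 2 lay between the untreated arrays. These values are from probe ILMN_2959480, and a second Eif4a1 probe, ILMN_2618481, was detected on untreated replicate 2 only and was not tested.

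Eif4a3 is a helicase of the exon junction complex and works mainly in splicing and mRNA surveillance rather than in initiation. Its log2 values were 10.54 and 10.48 with o-HA, 7.82 and 10.24 with n-HA, and 10.79 and 10.92 in untreated cells. All treated arrays lay below both untreated arrays, with n-HA replicate 1 far below. The fold changes were -0.34 (SE 0.72, adjusted p = 1 in limma) with o-HA and -1.82 (SE 0.72, adjusted p = 0.218) with n-HA. Without n-HA replicate 1 they were -0.35 (SE 0.17, adjusted p = 0.379) and -0.6 (SE 0.21, adjusted p = 0.065). The bead intensities of Eif4a3 kept the same order, at 1606 and 1721 with o-HA, 216.1 and 682.7 with n-HA, and 2515 and 2100 in untreated cells.

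Eif4a2, the close relative of Eif4a1, was detected on 2 arrays. Its log2 values were 4.63 and 4.68 with o-HA, 5.98 and 4.51 with n-HA, and 4.76 and 4.47 in untreated cells, so only n-HA replicate 1 stood out, and the n-HA fold change of 0.63 had an adjusted p of 0.438 in limma. Without that array Eif4a2 was not tested. Eif4g2, a relative of the eIF4G scaffold that lacks the eIF4E-binding part, had 5.49 and 5.02 with o-HA, 4.43 and 5.89 with n-HA, and 5.25 and 5.51 in untreated cells. The n-HA arrays of Eif4g2 lay on either side of untreated cells, and its fold change was -0.22 with all arrays and 0.53 (adjusted p = 0.147) without n-HA replicate 1.

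Eif4h, a cofactor of the eIF4A helicase, differed little between groups after normalization and is also named after its values were seen. Its log2 values were 12.76 and 12.77 with o-HA, 12.68 and 12.79 with n-HA, and 12.68 and 12.77 in untreated cells. The fold changes were 0.04 (95% interval -0.45 to 0.53) with o-HA and 0.01 (95% interval -0.48 to 0.5) with n-HA, and without n-HA replicate 1 they were 0.04 and 0.06. n-HA replicate 1 thus did not stand apart for this probe. Its intensities before normalization were 7451 and 8160 with o-HA, 5285 and 4685 with n-HA, and 8368 and 7256 in untreated cells, so the dimmer n-HA arrays were brought level by the normalization.

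**Figure D4:**
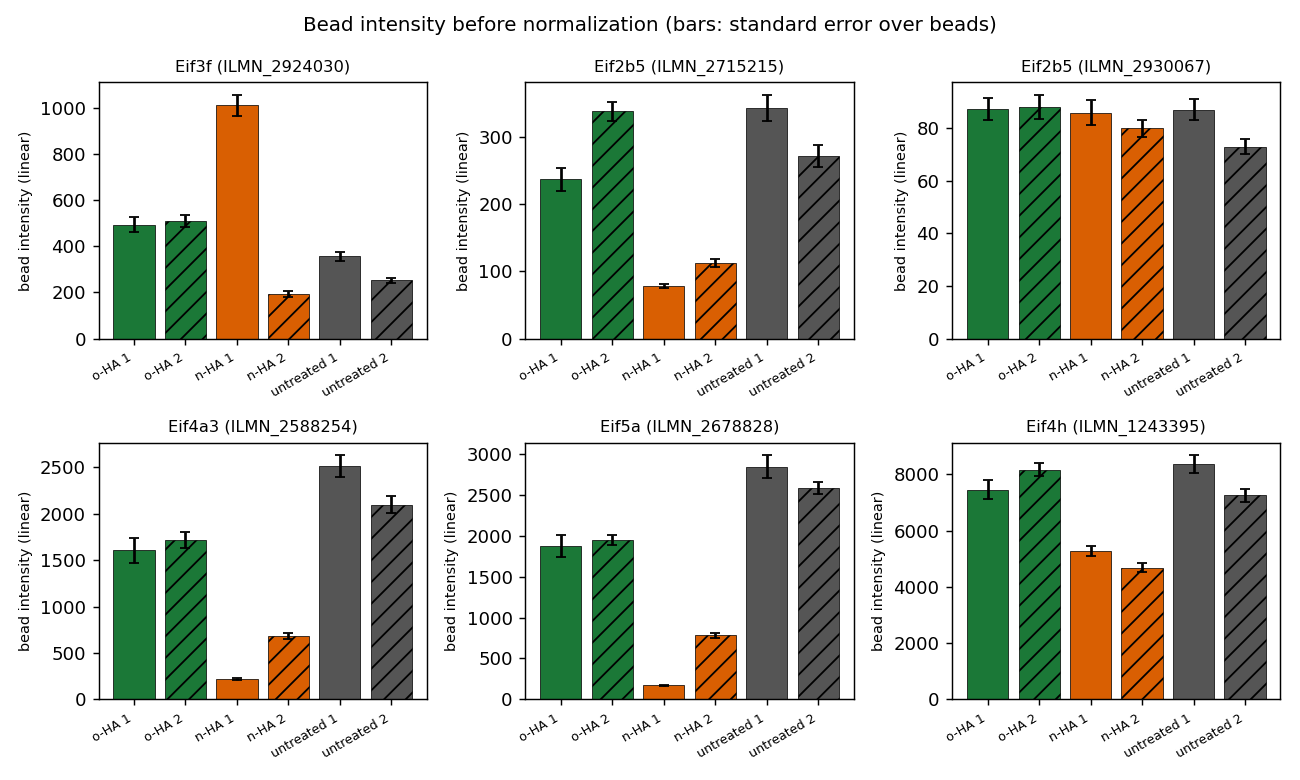
Bead intensity before normalization (vertical axes, linear, from 0) of 6 probes on the o-HA, n-HA and untreated arrays, with the standard error over beads. Eif3f is highest on n-HA replicate 1 (1013), Eif2b5 probe ILMN_2715215, Eif4a3 and Eif5a are low on both n-HA arrays, and Eif2b5 probe ILMN_2930067 overlaps between the groups.

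The proteins that bind or compete with eIF4E showed small differences. Eif4e2, a cap-binding relative that represses the mRNAs it holds, had log2 values of 8.0 and 8.08 with o-HA, 7.64 and 7.58 with n-HA, and 8.0 and 7.78 in untreated cells. Its n-HA arrays agreed and lay below the other 4, with a fold change of -0.28 (SE 0.21, adjusted p = 0.442 in limma) with all arrays and -0.29 (SE 0.22, adjusted p = 0.364) without n-HA replicate 1. Eif4ebp2, an inhibitor that blocks eIF4E from eIF4G, had 5.88 and 5.48 with o-HA, 5.87 and 5.37 with n-HA, and 6.22 and 5.71 in untreated cells. Its fold changes were -0.28 (SE 0.31) with o-HA and -0.34 (SE 0.31) with n-HA, with groups that overlapped. Leaving out n-HA replicate 1 moved the n-HA value to -0.61 (SE 0.26, adjusted p = 0.113 in limma). Eif4enif1, a transporter that takes eIF4E to the nucleus and to P-bodies, had 6.94 and 6.94 with o-HA, 6.0 and 7.1 with n-HA, and 6.94 and 7.01 in untreated cells, and only n-HA replicate 1 was low. Its n-HA fold change was -0.43 (SE 0.37, adjusted p = 0.496 in limma) with all arrays and turned to 0.12 (SE 0.21, adjusted p = 0.718) without that array.

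Eif5a gave the largest fall of the initiation factors with n-HA, and most of it lay on 1 array. The factor carries hypusine, an amino acid found in no other protein family, and helps the ribosome through difficult peptide bonds, so it acts mainly in elongation. Probe ILMN_2678828 had log2 values of 10.81 and 10.71 with o-HA, 7.45 and 10.44 with n-HA, and 10.96 and 11.23 in untreated cells. All treated arrays lay below both untreated arrays. The n-HA fold change was -2.15 (SE 0.88, adjusted p = 0.228 in limma) with all arrays and -0.65 (SE 0.22, adjusted p = 0.0528) without n-HA replicate 1, and the o-HA fold change was -0.33 (SE 0.88, adjusted p = 1). The second probe of Eif5a, ILMN_2686044, had 8.85 and 9.12 with o-HA, 8.22 and 9.01 with n-HA, and 9.1 and 9.23 in untreated cells, with an n-HA fold change of -0.55 (SE 0.31, adjusted p = 0.321) with all arrays and -0.16 (SE 0.22, adjusted p = 0.652) without n-HA replicate 1. Both probes had negative n-HA values short of the threshold, and for both the size rested mostly on n-HA replicate 1.

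Eif6, which keeps the large ribosomal subunit from joining too early, had log2 values of 4.86 and 5.2 with o-HA, 6.51 and 5.41 with n-HA, and 5.04 and 5.17 in untreated cells. After normalization both n-HA arrays lay above the other 4, n-HA replicate 1 far above. Before it, the intensities were 75.39 and 87.34 with o-HA, 110.4 and 75.89 with n-HA, and 84.2 and 80.19 in untreated cells. Eif6 was thus below both untreated arrays there on n-HA replicate 2. Its n-HA fold change was 0.85 (SE 0.38, adjusted p = 0.249 in limma) with all arrays and 0.32 (SE 0.23, adjusted p = 0.343) without n-HA replicate 1. With o-HA it was -0.08 (SE 0.38), with groups that overlapped.

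The n-HA arrays can be set side by side over the 28 probes. Both lay above untreated cells for 7 probes (25%, against 23.8% of all probes) and both below for 9 (32.1%, against 30.5%). They lay on opposite sides for 5 (17.9%, against 20.4%), and for the remaining 7 (25%, against 25.3%) at least 1 lay between the untreated arrays. These shares were near those of the whole array. The size of the difference was not alike on the 2 arrays. Against the untreated mean, n-HA replicate 1 stood at -3.65 for Eif5a probe ILMN_2678828 and 2.49 for Eif3f, where n-HA replicate 2 stood at -0.66 and 0.44. For Eif2b5 probe ILMN_2930067 the arrays were alike, at 0.71 on n-HA replicate 1 and 0.75 on n-HA replicate 2.

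**Figure D5:**
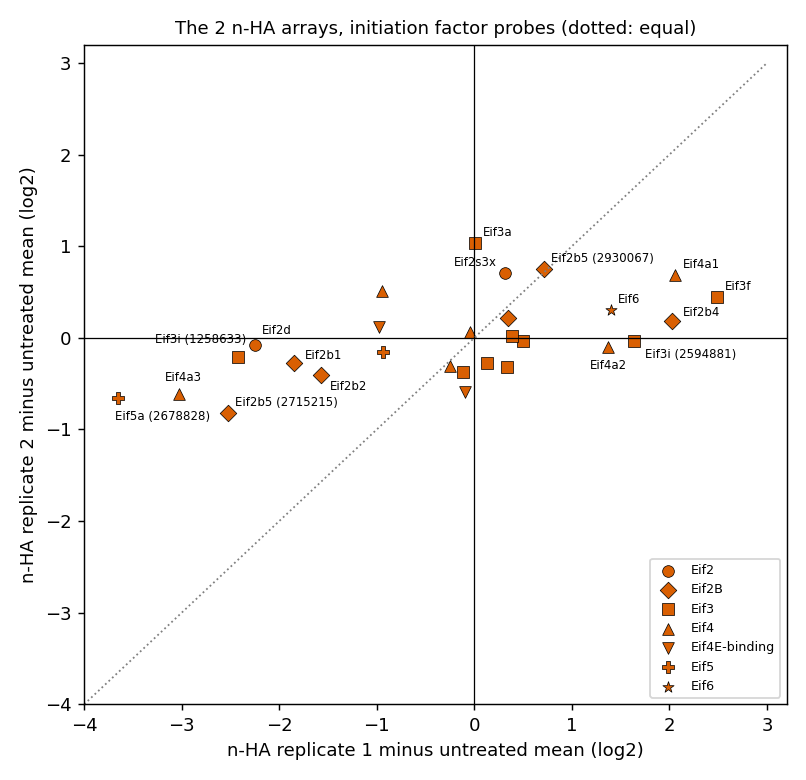
Difference of each tested initiation factor probe from the untreated mean (log2) on n-HA replicate 1 (horizontal axis) and n-HA replicate 2 (vertical axis); symbols mark the factor class and the dotted line marks equal values. Most points spread far along the horizontal axis and little along the vertical one, with Eif5a (-3.65 and -0.66) and Eif3f (2.49 and 0.44) at the ends.

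Other genes of the pathway were taken from fixed lists. In 7 lists of partners and regulators, 48 of 51 genes were on the array and 25 genes, with 34 probes, were tested. With all 6 arrays, 0 of 34 probes passed with o-HA and 0 of 34 with n-HA. The n-HA fold changes with all 6 arrays were positive for 18 probes (49.3% of all probes) and negative for 16 (50.7% of all probes). Without n-HA replicate 1, the most negative n-HA fold changes of the 34 belonged to 4 genes, picked here by value. That fit rests on 1 n-HA array and does not single out these genes. They were Pabpc1 and Pabpc4, which bind the poly(A) tail and eIF4G, and Eef2, which moves the ribosome along the mRNA (3 probes). The last was Trib3, a target of the eIF2 stress response.

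Pabpc1 had log2 values of 7.07 and 7.02 with o-HA, 4.64 and 6.06 with n-HA, and 7.47 and 7.49 in untreated cells. Both n-HA arrays lay below the rest. The n-HA fold change was -2.13 (SE 0.45, adjusted p = 0.159 in limma) with all arrays and -1.42 without n-HA replicate 1. Pabpc4 had 10.04 and 9.91 with o-HA, 7.03 and 9.35 with n-HA, and 10.38 and 10.35 in untreated cells. Its n-HA fold change was -2.17 (SE 0.69, adjusted p = 0.179 in limma) with all arrays and -1.01 without n-HA replicate 1. Trib3 had 5.93 and 6.29 with o-HA, 4.45 and 6.05 with n-HA, and 6.75 and 6.95 in untreated cells. Its n-HA fold change was -1.61 (SE 0.51, adjusted p = 0.179 in limma) with all arrays and -0.81 without n-HA replicate 1. For these genes the o-HA arrays also lay below both untreated arrays, short of the threshold. The 3 Eef2 probes fell together with n-HA, at -1.61, -1.54 and -1.53 with all arrays, short of the threshold. Without n-HA replicate 1 they had -0.85, -0.78 and -0.94.

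The control inputs of the pathway did not pass. The mTOR list had 8 tested probes, of Mtor, Mlst8, Tsc1, Tsc2, Mknk1 and Mknk2. With all 6 arrays, 8 of 8 had a positive n-HA fold change, against 49.3% of all probes. Their median was 0.53, against -0.01 over all probes, and 0 passed. Probes of a list share arrays, so no test was made over them. Without n-HA replicate 1, Tsc2 probe ILMN_1214823 turned to -0.53. Mtor itself, the kinase, had log2 values of 6.33 and 6.24 with o-HA, 6.16 and 6.45 with n-HA, and 6.45 and 6.04 in untreated cells, with groups that overlapped. Tsc2, an inhibitor of mTOR, had 8.63 and 8.66 with o-HA, 10.07 and 8.59 with n-HA, and 8.33 and 8.02 in untreated cells on probe ILMN_3135566, with all treated arrays above both untreated arrays (adjusted p = 1 for o-HA and 0.23 for n-HA in limma). Of the eIF2 kinases and phosphatase subunits, 2 of 6 genes were tested, Eif2ak2 and Ppp1r15a. Eif2ak2, the kinase activated by double-stranded RNA, had 6.41 and 6.01 with o-HA, 7.48 and 5.87 with n-HA, and 5.68 and 5.83 in untreated cells, again with all treated arrays above (adjusted p = 1 for o-HA and 0.32 for n-HA). Atf4 and Ddit3, the transcription factors that follow eIF2 phosphorylation, had o-HA fold changes of -0.29 (SE 0.3) and 0.04 (SE 0.33) and n-HA fold changes of -0.09 (SE 0.3) and -0.6 (SE 0.33). These values concern mRNA only, and phosphorylation of the factors was not measured.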

How the data were processed

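Total RNA of 6 HL-1 samples was labelled with the Illumina TotalPrep kit and read on 1 MouseRef-8 chip. The study's text pairs this record with an experiment on fibroblasts and the hyaluronan experiment with another record; the labels, which name HL-1 cells given hyaluronan, were followed. The authors deposited bead intensity per probe, linear and before normalization, from BeadStudio 3.3 (submitters' processing notes), with the standard error over beads, the deposited count of beads per probe (median 41 per array, 19 to 70 over the members) and a deposited detection p-value against negative control beads. A second deposited table held intensity after the authors' cubic spline normalization. It is linear with 38.1% of values below 0, its column medians were 1.687 to 1.694, and which background was subtracted is unknown. It served as an alternative.

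Of the 25697 probes, 23978 carried 1 gene symbol in the platform annotation, 0 several and 1719 none. All 67 member probes matched the reference gene table by Entrez number. Bead intensities were corrected with neqc of limma 3.58.1 (R 4.3.3), with negative controls inferred from detection p-values and an offset of 16, then quantile-normalized and put on the log2 scale. Probes detected at p under 0.05 on at least 2 of 6 arrays were tested (6194), with a mean per group (lmFit, eBayes, 3 residual and 3.145 prior degrees of freedom, or 2 and 12.89 without n-HA replicate 1). P-values are two-sided, from limma, adjusted by Benjamini-Hochberg over all probes tested. The scripts were tested on simulated data in which a probe had the same spread on every array. That test does not cover an array that lies apart, as n-HA replicate 1 does. For a probe that a group's arrays all missed, the fold is a bound against the lowest signal detected there. Levels of different probes were not compared, and precision is limited by the 2 arrays per group.

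Probes were named if they passed with or without n-HA replicate 1, had 1 of the 5 smallest p-values of a comparison, belonged to genes whose probes disagreed by over 0.5, or stood on a panel of 16 factors. The other tested members (Eif2d, Eif2b1, Eif2b2, Eif2b4, Eif3b, Eif3d, Eif4e2, Eif4h, Eif4ebp2 and Eif4enif1) fall outside this rule and were described after their values were seen. The members, gene lists and rules were chosen with earlier results of these data known. The alternatives were no normalization, the authors' values, no background correction, an offset of 50, other detection limits, array weights, a trended prior, a replicate block and each array left out. The authors' values without n-HA replicate 1 were added after seeing the data. Start regions came from RefSeq tables of GRCm38.p6. Probe sequences were not used here.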

Additional observations from a re-analysis of the deposited data

Results flagged for a closer look

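Some untested probes gave a signal on 1 treated array and on neither untreated array, and both treated and untreated values lay near background. Eif3a probe ILMN_2735157 had a log2 value of 4.99 on n-HA replicate 1, against 4.37 and 4.55 in untreated cells. Eif3h, a subunit of eIF3, had 5.18 on n-HA replicate 2, against 4.6 and 4.37 in untreated cells. Eif4b, a cofactor of the eIF4A helicase, had 4.77 on o-HA replicate 2, against 4.54 and 4.38 in untreated cells. Eif5, the factor that triggers GTP hydrolysis by eIF2, had 5.14 on n-HA replicate 1 with probe ILMN_3151345, against 4.52 and 4.68 in untreated cells. Each was seen on 1 array of its group only, and the difference was not tested.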

How the results depend on the processing

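For initiation factors the count past the threshold stayed at 0 under most alternatives. With o-HA it was 0 to 1 of the members when single arrays were left out, and over all probes 0 to 24, or 26 with array weights. The o-HA median moved to -0.06 with no normalization between arrays and ranged from -0.02 to 0.05 with arrays left out. With n-HA the count depended on the n-HA arrays, at 0 to 17 members and 0 to 3221 probes with arrays left out (4 and 1010 without n-HA replicate 1, 17 and 3221 without n-HA replicate 2). With no normalization it was 10 of 28 members and 1472 of 6194 probes, all lower, and the median was -0.5 (-0.35 over all probes). No filter on dim probes gave 12 probes and array weights gave 8. The n-HA median was -0.31 for probes detected on all 6 arrays (0.13 over all probes) and ranged from -0.09 to -0.04 with arrays left out. The authors' values without n-HA replicate 1 were chosen after seeing the data. There 2 of 26 members (Eif2s3x and Eif3a) and 688 of all 5893 probes passed with n-HA. Eif2s3x entered the test only through treated arrays, so its call supports nothing by itself. That fit rests on 1 n-HA array and does not single out these members.

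Reversed values were small for the most part. With arrays left out, n-HA values ranged from -0.33 to 0.35 for Eif3i probe ILMN_2789601, -0.04 to 1.72 for Eif3i probe ILMN_2594881, -0.07 to 0.53 for Eif3l probe ILMN_2613044 and -1.01 to 0.53 for Eif4g2, all of which turned sign without n-HA replicate 1. With the authors' values and without n-HA replicate 1 these probes had -0.47, -0.04, -0.05 and 0.53. With no normalization, n-HA values turned to -0.19 for Eif3i probe ILMN_2789601, -0.35 for Eif3l probe ILMN_2613044 and -0.24 for Eif3l probe ILMN_2720520, and the Eif3i probe also turned to -0.04 with the authors' values and -0.01 without background correction. For o-HA, Eif3i probe ILMN_1258633 turned to -0.1 with no normalization. With arrays left out, o-HA values ranged from -0.11 to 0.17 for that probe, -0.38 to 0.33 for Eif3i probe ILMN_2594881, -0.18 to 0.07 for Eif3i probe ILMN_2789601, -0.02 to 0.17 for Eif2b5 probe ILMN_2602140, -0.29 to 0.13 for Eif2b5 probe ILMN_2715215, -0.1 to 0.07 for Eif4a2, -0.35 to 0.11 for Eif4g2 and -0.23 to 0.09 for Eif6. The causes were not tested.

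With the replicate number as a block, 0 initiation factor probes passed in either comparison. Same-numbered arrays of o-HA and untreated cells deviated with a correlation of -0.114, those of n-HA and untreated cells with 0.153, and those of o-HA and n-HA with -0.0449 over all probes tested. Over the initiation factors the correlations were 0.119, 0.419 and -0.482. The labels do not tie the numbers, so they were not taken to pair the arrays. The main limits are 2 arrays per group, n-HA arrays with fewer probes above background, and chip places that cannot be told apart from groups. Array weights were 0.22 for each n-HA array and 2.13 for the others.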
